A study of Homo sapiens with 12 samples.

Results

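Mirtrons are miRNAs cut from introns by the splicing machinery. A short intron is excised, its lariat is debranched, and the freed RNA folds into a hairpin that DICER1 cuts into a 5p and a 3p arm, so the DROSHA step of canonical miRNA production is bypassed. In tailed mirtrons only 1 end of the hairpin is an intron end, and the remaining intron sequence is trimmed away. The miRNAs described here were chosen by number alone: every row of the table named hsa-miR-6720 to hsa-miR-6895, the series in which many mirtron candidates were registered, together with the earlier mirtron entries miR-877, miR-1224 to miR-1229, miR-1233, miR-1234 and miR-1236 to miR-1238. The rule gave 212 of the 1204 mature miRNAs of the table (17.6%), from 140 hairpins, with 121 named 3p, 89 named 5p and 2 without an arm. Of the earlier entries, only miR-877, miR-1226, miR-1227, miR-1229, miR-1234, miR-1236, miR-1237 and miR-1238 had rows, 11 mature miRNAs in all. The rule reads names and numbers only, not measured values.

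Both cell lines used, MV4-11 and Molm-14, are lines of human AML with the FLT3 internal tandem duplication, and each carried either a CRISPR/Cas9 deletion of MPC1 (MPC1 KO) or the nontargeting Empty Vector (EV). The mitochondrial carrier that MPC1 helps to form brings pyruvate into mitochondria, and the study asked how miRNAs change when pyruvate entry into mitochondria is cut. Each of the 4 groups had 3 small RNA libraries (12 in total), and the labels give neither separate cultures nor clones, so p-values measure only the spread between these libraries, which may be technical. MPC1 mRNA is not read by such libraries, and its deletion was not analysed here. Library totals were 3870104 to 8683456 counts, with MV4-11 EV replicate 1 the deepest. Levels are given as CPM, counts scaled to library size. For single miRNAs the library totals were scaled by TMM factors, and for summed levels the plain totals were used unless stated. The haematopoietic miR-142, miR-223 and miR-155 were at 2730 CPM or more in each group. The epithelial miR-205-5p and the neuronal miR-124-3p had at most 6 counts in a library. Epithelial miR-200c-3p was nonetheless at 113 to 239 CPM as a group mean, and liver miR-122-5p at 5.49 to 8.02.

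The genome position of the hairpins was checked against the gene annotation of GRCh38 (GENCODE), since the numbers alone do not make a miRNA a mirtron. Of the 140 hairpins, 13 spanned a whole intron, with both ends within 3 bases of the splice sites, and these introns were 69 to 115 bases long. A further 115 ended at the splice acceptor only, as in 5′-tailed mirtrons, and 3 ended at the donor only. The remaining hairpins lay inside an intron (4), overlapped an exon and fitted no intron (4), or lay opposite a gene (1). An intron of any annotated transcript was accepted. Many hairpins placed on an intron also overlapped an exon of another transcript, among them miR-6787, miR-6866 and the whole-intron miR-6891. Among the 668 hairpins of other miRNAs with a locus, 3 spanned an intron and 31 ended at an acceptor, and 449 lay inside an intron away from its ends. In all, 131 of the 140 hairpins had an end at a splice site of some annotated transcript.

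The hairpins below are shown because their arms carry the main results, with the mature arms in capitals. The sequences are those of RefSeq (GRCh38.p14), which held 185 of the 212 mature sequences. The miR-877 and miR-1226 hairpins are whole introns, of ABCF1 (an ATP-binding translation factor) at chr6:30584332-30584417 on the plus strand and of DHX30 (an RNA helicase) at chr3:47849555-47849629 on the plus strand. miR-6774 is the last 70 bases of an intron of 3896 bases in IRF8, a transcription factor of the myeloid lineage, at chr16:85918347-85918416 on the plus strand. miR-6720 lies in no intron: at chr6:1390314-1390411 on the minus strand it is opposite an exon of FOXF2, a forkhead transcription factor gene.
miR-877: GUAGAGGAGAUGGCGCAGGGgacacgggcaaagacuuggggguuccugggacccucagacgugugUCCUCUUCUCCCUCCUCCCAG
miR-1226: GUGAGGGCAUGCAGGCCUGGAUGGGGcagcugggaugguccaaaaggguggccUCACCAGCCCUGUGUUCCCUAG
miR-6774: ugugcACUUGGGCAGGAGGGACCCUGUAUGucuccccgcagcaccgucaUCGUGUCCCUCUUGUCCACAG
miR-6720: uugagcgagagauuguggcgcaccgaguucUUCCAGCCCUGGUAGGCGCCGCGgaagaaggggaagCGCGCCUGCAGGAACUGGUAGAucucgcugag
In the first 3 the 3p arm is the last stretch of the intron, and its final AG is that of the splice acceptor. The pair that are whole introns also begin with GU, the first bases of an intron. In miR-6720 the 3p arm ends in GA, and the hairpin runs on beyond it.

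Mature sequences of some of the members that the results turn on are given with the seed, bases 2 to 8, in capitals, and miR-6842-3p and miR-6747-3p are named only.
miR-877-5p: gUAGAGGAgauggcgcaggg
miR-877-3p: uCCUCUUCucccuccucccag
miR-6774-3p: uCGUGUCCcucuuguccacag
miR-1226-3p: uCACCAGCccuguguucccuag
miR-1237-3p: uCCUUCUGcuccgucccccag
miR-6731-3p: uCUAUUCCccacucuccccag
miR-6777-3p: uCCACUCUccuggcccccag
miR-6787-3p: uCUCAGCUgcugcccucuccag
miR-6868-3p: uUCCUUCUguugucugugcag
miR-6870-3p: gCUCAUCCccaucuccuuucag
miR-6720-3p: cGCGCCUGcaggaacugguaga
miR-6838-5p: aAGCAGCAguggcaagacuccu
No 2 of these share a seed. Across the 185 members with a sequence there were 180 different seeds, and 9 members shared theirs with another member, so the members are not a seed family. Another 16 had the seed of a miRNA outside the set, among them miR-6838-5p, whose seed is that of miR-15a, miR-16 and their relatives. miR-6838-5p was rare, with 59 counts over the 12 libraries and 0 to 14 in each.

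Splice-site letters and base composition set the arms apart. Of 108 member 3p sequences, 86 ended in AG (79.6%), against 41 of 346 3p sequences of other miRNAs (11.8%). Pyrimidines made up a median of 73.3% of the bases of member 3p arms and 54.5% of other 3p arms. A tract of pyrimidines precedes splice acceptors in general. Member 5p arms were rich in G, at a median of 50% against 28.6%. A GU start was less common, in 8 of 76 member 5p sequences (10.5%) and 11 of 335 others (3.28%).

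All 212 members had at least 1 count somewhere, but few were abundant. Members are rows of the deposited table, so miRNAs of these numbers without a row are not covered. The summed count over 12 libraries ran from 3 to 14632 with a median of 36, against a median of 163.5 for the 992 other miRNAs, and 158 members had under 100 counts. A library held 148 to 186 of the members, and 79 were found in every library. After the filter on low counts, 61 members (28.8%) could be tested, 47 of them 3p arms and 14 5p arms, against 598 of 992 other miRNAs (60.3%). The tested members were also low among tested miRNAs, with a median mean count of 14.9 against 54.3 over all 659 tested.

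A few members carried most of the signal. miR-6842-3p, from the end of an intron of PTK2B (a focal adhesion family kinase), had 14632 counts and ranked 127 of all miRNAs. miR-877-5p ranked 164 with 7292 counts, and miR-6774-3p ranked 228 with 2830 counts. These 3 held 55.1% of all member counts and the 10 most abundant held 70.2%. Hairpins that span a whole intron gave 28.6% of member counts and those at an acceptor end 68.3%. The whole-intron share was 24.0% in MV4-11 and 37.6% in Molm-14, and without miR-6842-3p it was 39.7% and 46.4%. Counts were compared between miRNAs without correction for length, and how evenly ligation captured each end was not tested.

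Together, the members made up a larger part of the MV4-11 libraries than of the Molm-14 libraries. Their summed level in CPM was 905.1, 820.9 and 910.3 in MV4-11 EV, 926.1, 930.5 and 919.6 in MV4-11 MPC1 KO, 482.3, 537.7 and 476.7 in Molm-14 EV, and 545.6, 521.5 and 546.5 in Molm-14 MPC1 KO. All 6 MV4-11 libraries lay above all 6 Molm-14 libraries. The means were 878.8 ± 50.2 and 925.4 ± 5.48 in MV4-11 EV and MPC1 KO, and 498.9 ± 33.7 and 537.9 ± 14.2 in Molm-14 EV and MPC1 KO (SD, n = 3 each). Within MV4-11 every MPC1 KO library exceeded every EV library, with means closer than the EV spread, and within Molm-14 the groups overlapped. With totals scaled by TMM the MV4-11 means were 875 and 876, so the small MV4-11 difference rested on the scaling. In bulk libraries of a cell line, fewer cells with a member and less of it per cell cannot be told apart. The exact 95% interval of a single library, which covers counting error only, reached from 880.6 to 940.6 in MV4-11 EV replicate 3, the widest.

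Much of the gap between the lines was miR-6842-3p. It took 38.2% to 41.6% of member counts in MV4-11 and 15.2% to 22.2% in Molm-14. Without it, the means were 528.0 ± 20.9 and 566.8 ± 2.78 in MV4-11 EV and MPC1 KO, and 411.9 ± 19.0 and 429.2 ± 20.1 in Molm-14 (SD, n = 3 each). The libraries of the lines still did not overlap.

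**Figure D1:**
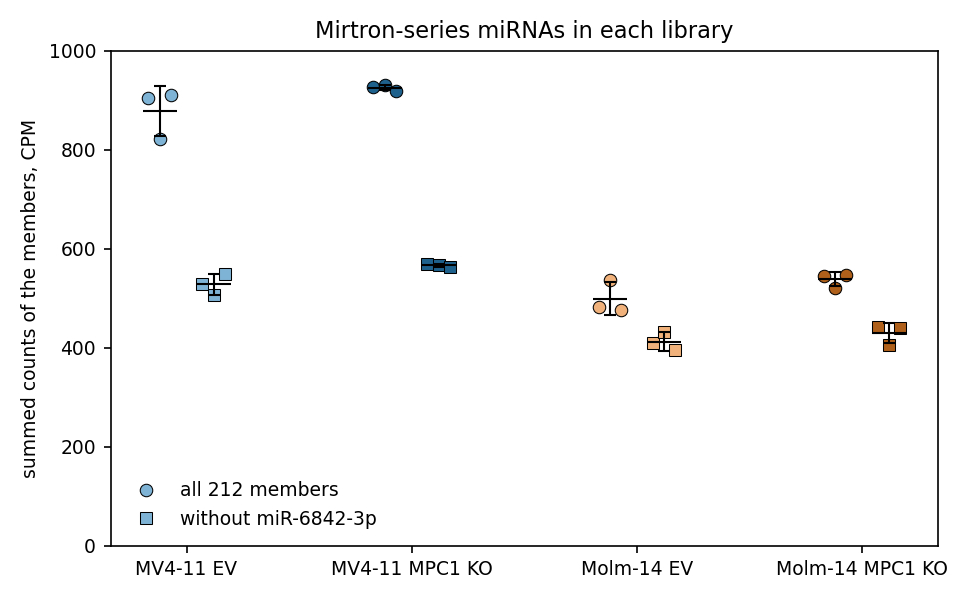
Summed CPM of all 212 members in each library (circles), and the same without miR-6842-3p (squares), by group; bars show mean ± SD of 3 libraries. The MV4-11 libraries lie at 820.9 to 930.5 and the Molm-14 libraries at 476.7 to 546.5, and the gap narrows when miR-6842-3p is left out.

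The 3p arm gave most of the counts, 32821 of 44922, against 12045 from 5p arms. By library the 3p share was 75.0% to 79.9% in MV4-11 and 61.4% to 67.0% in Molm-14. Without miR-6842-3p it was 59.2% to 66.7% and 53.4% to 59.1%. Counted by hairpin the lean was smaller. Of 72 hairpins with both arms in the table, 69 had at least 20 counts in sum, and 42 of these (60.9%) had more 3p than 5p counts. Among other miRNAs it was 133 of 267 (49.8%). With a minimum of 100 counts the member share was 28 of 39 (71.8%) and that of others 115 of 228 (50.4%). The leading arm was the same in both lines for 43 of the 45 hairpins with 20 counts in each. A further 49 hairpins were listed with a 3p arm only and 17 with a 5p arm only.

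The hairpins differed widely among themselves. miR-6842 gave 98.7% of its counts from the 3p arm, miR-1237 98.2%, miR-1226 94.5%, miR-6774 84.1% and miR-6720 78.9%. At the other end, miR-6866, in an intron of CASC3 (a core protein of the exon junction complex), gave 1.5%, with 395 counts of 5p and 6 of 3p. miR-877 gave 15.4%, although it spans a whole intron like miR-1226. Of the 7 whole-intron hairpins with enough counts 3 had more 3p, and of the 57 at an acceptor end 36 did.

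**Figure D2:**
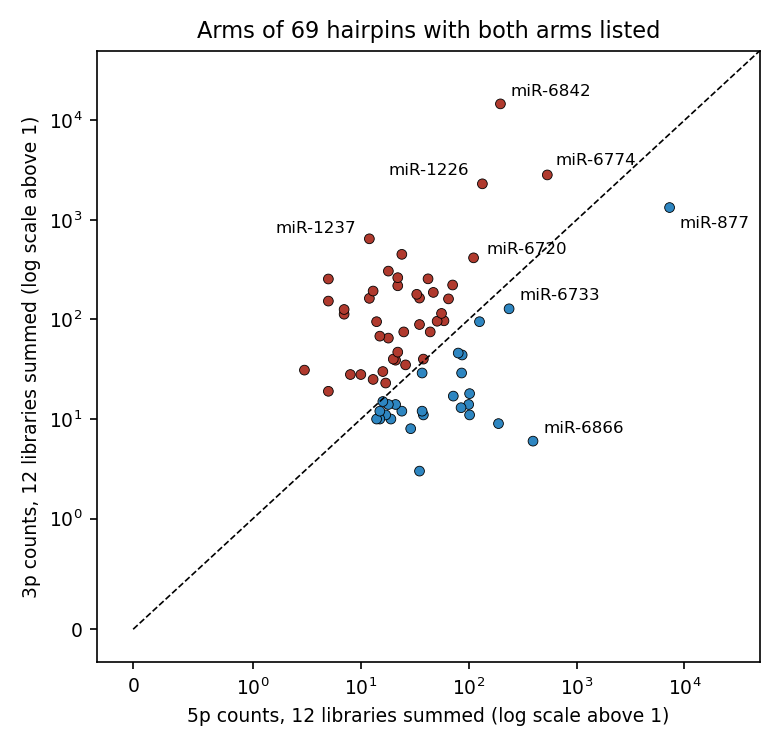
Counts of the 5p arm (x axis) and 3p arm (y axis) of the 69 member hairpins with both arms listed and at least 20 counts, summed over 12 libraries; axes are logarithmic above 1 and the dashed line marks equal arms. Red points (42) have more 3p and blue points (27) more 5p, with miR-6842 and miR-877 the most abundant on either side.

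The EV libraries were compared first, to see where the members stand in each line before MPC1 is deleted. Of the 61 tested members, 24 differed between Molm-14 EV and MV4-11 EV (39.3%) by edgeR's quasi-likelihood test at a Benjamini-Hochberg adjusted p under 0.05, where 61.9% of all tested miRNAs did. Of the 61, 19 were lower in Molm-14, where 28.4% of all tested miRNAs were lower. Only 5 were higher, where 33.5% of all were higher. The share of members lower was thus near that of all tested miRNAs, and few members were higher. The median log2 fold change was -0.52 over the members and 0.06 over all tested. Part of this lies in the filter. 17 members passed it through MV4-11 alone and had to lean that way, and 10 of them were lower. Of the 34 that passed in each line on its own, 9 were lower and 1 was higher (29.4%, against 59.7% of all miRNAs of that kind). Among all 501 miRNAs of that kind, 130 were lower and 169 were higher. The epithelial markers miR-200c-3p and miR-141-3p were lower in Molm-14 EV as well, with log2 fold changes of -0.95 and -1.22. The blood markers differed in both directions, with miR-142-3p and miR-142-5p higher in Molm-14 EV (1.01 and 0.65) and miR-155-5p and miR-223-3p lower (-0.5 and -0.25). The part of these markers in the members' differences was not tested.

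Among the abundant members, miR-6842-3p had 3273, 1373 and 1415 counts in MV4-11 EV and 385, 408 and 381 in Molm-14 EV. All Molm-14 libraries were lower, and the TMM-scaled levels were 349.0 ± 44.6 and 90.5 ± 16.5 CPM (SD, n = 3 each). The log2 fold change was -1.95 (standard error, SE, 0.13, edgeR adjusted p = 1.29e-12), 3.88-fold lower in Molm-14. Its rare 5p arm was also lower, with a log2 fold change of -1.29 (SE 0.40, edgeR adjusted p = 0.00730). That arm passed the filter on low counts through MV4-11 alone, and its call was lost without Molm-14 EV replicate 1 (edgeR adjusted p = 0.0578).

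miR-6774-3p, from the IRF8 intron, had 530, 262 and 256 counts in MV4-11 EV and 75, 70 and 63 in Molm-14 EV. Its level was 61.7 ± 2.61 and 15.9 ± 2.41 CPM (SD, n = 3 each), a log2 ratio of -1.96 (SE 0.14, edgeR adjusted p = 1.82e-11). miR-6774-5p went the same way, at -1.49 (SE 0.28). Both arms of this hairpin were thus lower in Molm-14. IRF8 mRNA was not analysed here.

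The intron-spanning members did not move together. miR-1237-3p, from an intron of RPS6KA4 (a stress-activated nuclear kinase), had 102, 58 and 69 counts in MV4-11 EV and 23, 12 and 17 in Molm-14 EV. Its log2 fold change was -1.82 (SE 0.24, edgeR adjusted p = 5.09e-07). By contrast miR-1226-3p stood at 37.4 ± 1.11 and 35.9 ± 3.61 CPM (SD, n = 3 each), a log2 fold change of -0.06 (SE 0.15). miR-877-5p stood at 108.0 ± 17.7 and 125.0 ± 12 CPM (SD, n = 3 each), a log2 fold change of 0.20 (SE 0.13), and neither passed the test. The opposite arm, miR-877-3p, was lower in Molm-14, at -0.75 (SE 0.17, edgeR adjusted p = 0.000420). The arms of miR-877 therefore gave different results from the same intron.

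A few members were counted almost entirely in 1 line. miR-6720-3p had 0 counts in all 6 MV4-11 libraries and 77, 62 and 56 in Molm-14 EV, at 14.8 ± 2.03 CPM (SD, n = 3). Against the limit of 3 counts per MV4-11 library, it was at least 25.2-fold higher in Molm-14, and miR-6720-5p at least 7.09-fold higher. This is the hairpin that lies opposite FOXF2 and ends at no splice site. miR-6868-3p, from an intron of EXOC7 (a subunit of the exocyst), had 0, 1 and 0 counts in MV4-11 EV and 31, 35 and 38 in Molm-14 EV, at least 13.7-fold higher. miR-6870-3p, from an intron of the Notch ligand gene JAG1, had 0, 0 and 3 against 20, 16 and 11, at least 6.09-fold higher. These 4 members passed the filter through Molm-14 alone.

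In the opposite direction, miR-6731-3p, from RUNX3 (a RUNX family transcription factor of blood cells), had 25, 19 and 16 counts in MV4-11 EV and 3, 1 and 0 in Molm-14 EV, at least 5.39-fold lower. miR-6891-5p, a whole intron of HLA-B, had 18, 3 and 13 against 2, 3 and 0, at least 2.88-fold lower. The libraries of miR-6891-5p overlapped. Both passed the filter through MV4-11 alone.

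Some hosts are genes of metabolism, and MPC1 is a metabolic target, so their members are given by name. miR-6787-3p, from SLC16A3 (a monocarboxylate transporter that exports lactate), had 55, 22 and 28 counts in MV4-11 EV and 17, 5 and 2 in Molm-14 EV, with a log2 fold change of -1.77 (SE 0.40, edgeR adjusted p = 0.000428). Without Molm-14 EV replicate 1, the library with 17 counts, it was -2.85, and leaving out other libraries gave up to -1.28. miR-6777-3p, from SREBF1 (a regulator of lipid synthesis), was the 1 member that passed the filter in each line and was higher in Molm-14, at 1.16 (SE 0.40, edgeR adjusted p = 0.0153). Its libraries overlapped, with 32, 18 and 5 counts against 18, 46 and 28. With MPC1 deleted neither passed the test in MV4-11 (log2 fold changes -0.15 and -0.35, SEs 0.32 and 0.45) or in Molm-14 (0.26 and -0.56, SEs 0.47 and 0.38).

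The other members lower in Molm-14 are given by their range. miR-6798-3p (RUVBL2), miR-6726-3p (ACAP3), miR-6802-3p (PPP6R1), miR-6818-3p (MTMR3), miR-6813-5p (RGS19), miR-6837-3p (DBNL), miR-6852-5p (TLN1), miR-6753-3p (TCIRG1), miR-6769b-3p (IKBKE) and miR-6783-3p (KIF18B) had log2 fold changes of -0.82 to -1.87, with 95 to 562 counts in sum. Of these, miR-6726-3p, miR-6802-3p, miR-6818-3p, miR-6813-5p, miR-6837-3p, miR-6852-5p and miR-6769b-3p passed the filter through MV4-11 alone and had to lean that way, and the others passed it in each line. Without Molm-14 EV replicate 2 the log2 fold change of miR-6769b-3p was -1.66, against -1.01 with it. The calls of miR-6769b-3p, miR-6753-3p, miR-6783-3p and miR-6852-5p were lost with DESeq2 (adjusted p = 0.115, 0.0619, 0.106 and 0.140). Those of miR-6783-3p with limma-voom, miR-6777-3p with the EV groups fitted alone and miR-6852-5p without the filter on low counts were lost as well (adjusted p = 0.0524, 0.0527 and 0.0825). Leaving out Molm-14 EV replicate 1 ended the calls of miR-6769b-3p, miR-6753-3p, miR-6852-5p, miR-6837-3p and miR-6842-5p (edgeR adjusted p = 0.181, 0.134, 0.133, 0.0668 and 0.0578). Leaving out Molm-14 EV replicate 2 ended those of miR-6777-3p, miR-6783-3p and miR-6852-5p (edgeR adjusted p = 0.167, 0.0649 and 0.0551), and without replicate 3 those of miR-6769b-3p, miR-6783-3p, miR-6852-5p and miR-6813-5p were lost (edgeR adjusted p = 0.198, 0.174, 0.0879 and 0.0530). Without MV4-11 EV replicate 1, miR-6769b-3p, miR-6753-3p, miR-6783-3p and miR-6852-5p did not pass (edgeR adjusted p = 0.0982, 0.134, 0.255 and 0.0879). Without MV4-11 EV replicate 3, miR-6769b-3p, miR-6777-3p and miR-6852-5p did not pass (edgeR adjusted p = 0.113, 0.0619 and 0.0821), and miR-6769b-3p was also lost without MV4-11 MPC1 KO replicate 1 (edgeR adjusted p = 0.0523).

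**Figure D3:**
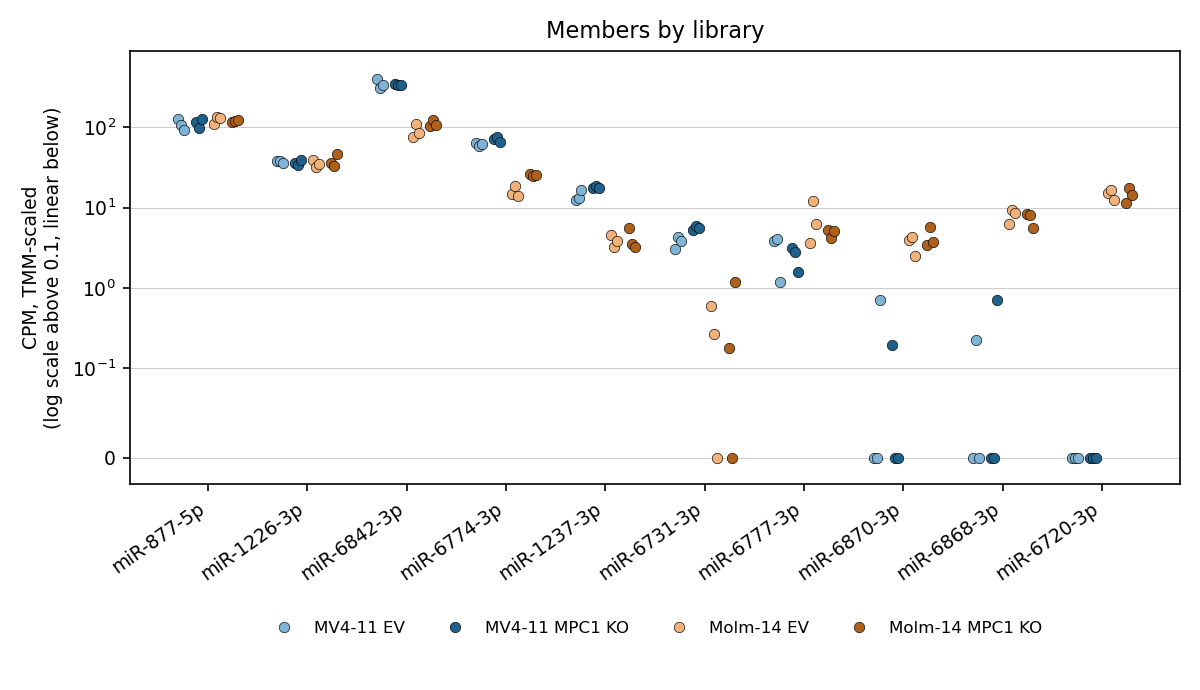
TMM-scaled CPM of 10 members in each of the 12 libraries, coloured by group, on an axis that is logarithmic above 0.1 and linear below. miR-877-5p and miR-1226-3p overlap between the lines, miR-6842-3p, miR-6774-3p, miR-1237-3p and miR-6731-3p lie lower in Molm-14, and miR-6870-3p, miR-6868-3p and miR-6720-3p are at or near 0 in MV4-11.

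MPC1 deletion was then compared with EV in each line, using the same EV libraries as above. In MV4-11, 0 of 61 tested members passed, where 3.03% of all tested miRNAs did. The count was also 0 with DESeq2 and limma-voom, and 1 member, miR-877-3p, had an unadjusted p under 0.05. The MPC1 KO libraries lay wholly above or below the EV libraries for 5 members (8.20%), where 17.5% of all tested miRNAs were so separated. Those above were miR-6731-3p, miR-1237-3p and miR-6774-3p, and those below were miR-6812-3p and miR-877-3p. The median log2 fold change over the members was 0.00, and the median SE was 0.36 against 0.24 over all tested, so smaller changes were harder to see in the members.

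In Molm-14, 1 of 61 members passed (1.64%), where 6.83% of all tested miRNAs did. The libraries did not overlap for 6 members (9.84%), where 27.2% of all tested miRNAs were so separated, with 5 above and 1 below. The member that passed was miR-6774-3p. It had 75, 70 and 63 counts in EV and 148, 136 and 109 in MPC1 KO cells, and every MPC1 KO library was above every EV library. Its level rose from 15.9 ± 2.41 to 25.7 ± 0.840 CPM (SD, n = 3 each), a log2 fold change of 0.70 (SE 0.15, edgeR adjusted p = 0.00338), 1.62-fold. The call held under every alternative tried. The level in Molm-14 MPC1 KO cells was still below that of MV4-11 EV, 61.7 ± 2.61 CPM (SD, n = 3).

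miR-6774-5p, cut from the same IRF8 hairpin, had 21, 6 and 23 counts in Molm-14 EV and 36, 40 and 30 in MPC1 KO cells, again without overlap. Its log2 fold change of 0.88 (SE 0.29) did not pass (edgeR adjusted p = 0.0687). It did pass with upper-quartile factors, with total counts, without the filter on low counts and without Molm-14 EV replicate 3 (edgeR adjusted p = 0.0455, 0.0453, 0.0475 and 0.0293). The 3p share of miR-6774 was 81.2% ± 9.78 in EV and 78.7% ± 1.60 in MPC1 KO (SD, n = 3 each), a difference smaller than the spread.

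In MV4-11, miR-6774-3p had 530, 262 and 256 counts in EV and 364, 449 and 368 in MPC1 KO cells. The MPC1 KO libraries were above the EV libraries once scaled, at 70.3 ± 5.08 against 61.7 ± 2.61 CPM (SD, n = 3 each), but the log2 fold change of 0.19 (SE 0.13) did not pass (edgeR adjusted p = 0.581). The log2 fold change in Molm-14 exceeded that in MV4-11 by 0.51 (SE 0.20), and this difference did not pass either (edgeR adjusted p = 0.148), except with upper-quartile factors (0.70, edgeR adjusted p = 0.0353), which moved the median difference of all miRNAs by 0.18. A rise in Molm-14 alone is therefore not shown.

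**Figure D4:**
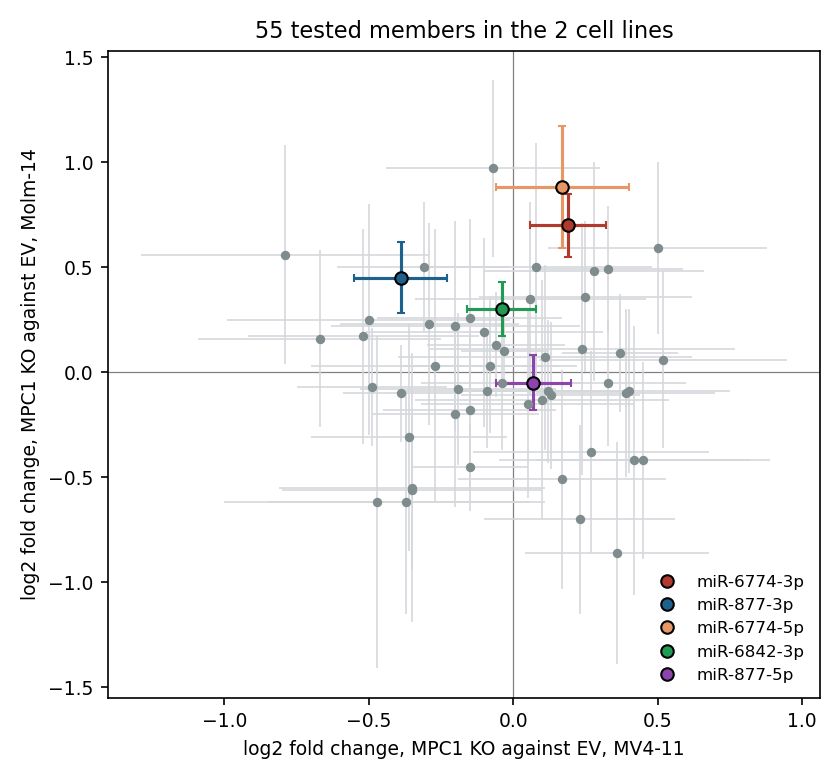
Log2 fold change of MPC1 KO against EV in MV4-11 (x axis) and Molm-14 (y axis) for 55 tested members, with SEs; the 6 members with a group of at most 3 counts in every library are left out. miR-6774-3p and miR-6774-5p lie highest among the coloured points, at 0.70 and 0.88 in Molm-14, and miR-877-3p lies on opposite sides of 0 in the lines.

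The effect of MPC1 deletion differed between the lines for 1 of 61 members, miR-877-3p, where 6.68% of all tested miRNAs differed. In MV4-11 it had 222, 98 and 129 counts in EV and 104, 120 and 117 in MPC1 KO cells, at 26.7 ± 4.35 and 20.3 ± 0.308 CPM (SD, n = 3 each). In Molm-14 it had 89, 59 and 62 counts in EV and 120, 124 and 87 in MPC1 KO cells, at 15.8 ± 1.91 and 21.6 ± 1.17 CPM (SD, n = 3 each). The MPC1 KO libraries were below every EV library in MV4-11 and above every EV library in Molm-14.

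The log2 fold changes of miR-877-3p were -0.39 (SE 0.16) and 0.45 (SE 0.17), and neither passed alone (edgeR adjusted p = 0.226 and 0.117). Their difference was 0.84 (SE 0.23, edgeR adjusted p = 0.0302). This call was lost with total counts in place of TMM (edgeR adjusted p = 0.0572) and in 9 of the 12 fits that left out a library. Those were the fits without MV4-11 EV replicate 3, without any MPC1 KO library of either line, and without Molm-14 EV replicate 2 or 3, with adjusted p = 0.0519 to 0.128 from edgeR.

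miR-877-5p, the more abundant arm, passed in neither line. Its levels were 108.0 ± 17.7 and 115.0 ± 13.7 CPM in MV4-11 EV and MPC1 KO, and 125.0 ± 12 and 121.0 ± 3.88 in Molm-14 (SD, n = 3 each). On the log2 scale the changes were 0.07 and -0.05 (SE 0.13 each), and their difference was -0.12 (SE 0.18, edgeR adjusted p = 0.788). In MV4-11 the 3p share of miR-877 was thus 20% ± 4.47 with EV and 15.1% ± 1.44 with MPC1 deleted, and in Molm-14 it was 11.3% ± 2.17 and 15.2% ± 1.02 (SD, n = 3 each). In each line the groups did not overlap (two-sided exact permutation p = 0.1, the smallest that 3 libraries against 3 allow, adjusted p = 0.4 over 12 such tests on 6 hairpins). The MPC1 KO cells of both lines had nearly the same 3p share. How reads with several matches were counted is not given in the sources used here.

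**Figure D5:**
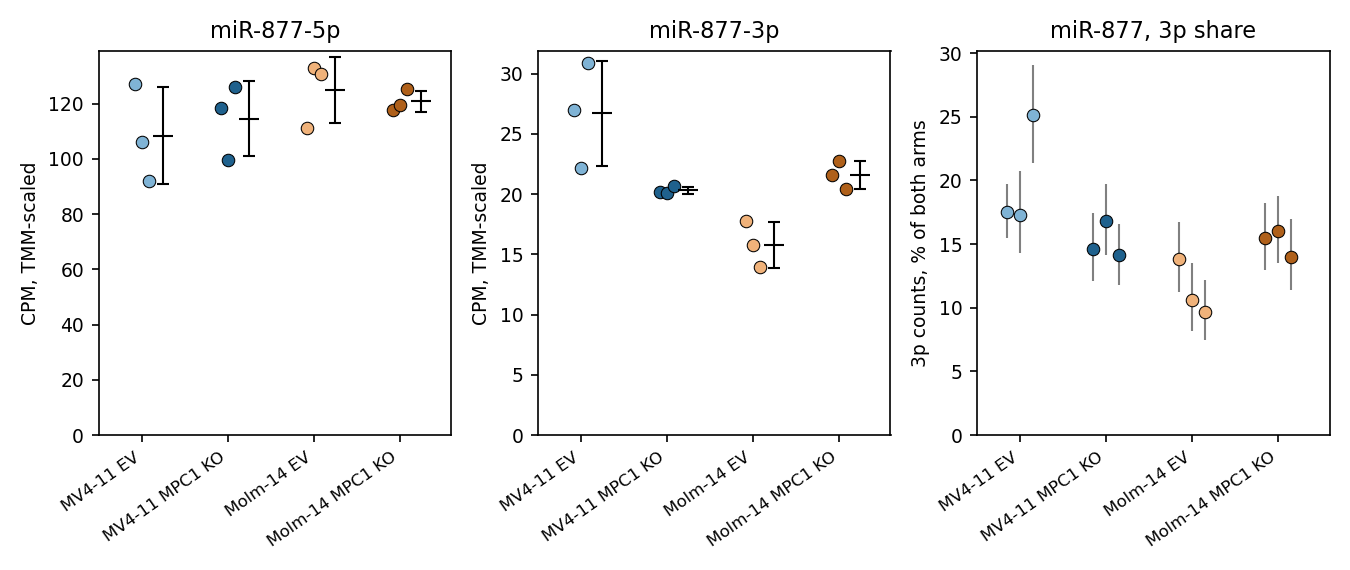
TMM-scaled CPM of miR-877-5p and miR-877-3p with mean ± SD of 3 libraries, and the share of the 3p arm in the miR-877 counts of each library with its exact 95% interval. The 3p arm and its share lie below the EV libraries in MV4-11 MPC1 KO and above them in Molm-14 MPC1 KO, with mean shares of 15.1% and 15.2%, and the 5p arm overlaps between the groups of each line.

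Of the other abundant members, none passed with MPC1 deleted. miR-6842-3p stood at 349.0 ± 44.6 and 339.0 ± 5.01 CPM in MV4-11 EV and MPC1 KO, and at 90.5 ± 16.5 and 111.0 ± 10.3 in Molm-14 (SD, n = 3 each). On the log2 scale these were changes of -0.04 (SE 0.12) and 0.30 (SE 0.13, edgeR adjusted p = 0.164), and the latter passed when Molm-14 EV replicate 2 was left out (0.48, edgeR adjusted p = 0.0197). miR-1226-3p had log2 fold changes of -0.03 and 0.10 (SE 0.15 each), and miR-1237-3p of 0.37 (SE 0.20) and 0.09 (SE 0.28). miR-6747-3p, from an intron of EEF1G (a translation elongation factor subunit), had -0.15 (SE 0.20) and -0.45 (SE 0.21, edgeR adjusted p = 0.234), and in Molm-14 its 3 MPC1 KO libraries were below the EV libraries. miR-6798-3p had -0.39 (SE 0.20) and -0.10 (SE 0.23).

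The members with the largest fitted changes were rare. In MV4-11 these were miR-6868-3p, with 0, 1 and 0 counts in EV and 0, 0 and 4 in MPC1 KO cells, and miR-6870-3p, with 0, 0 and 3 against 1, 0 and 0. These counts are too few for a fold. In Molm-14 the highest fitted log2 fold change was that of miR-6806-3p (ZSCAN22), with 11, 12 and 6 counts in EV and 16, 39 and 12 in MPC1 KO cells, at 0.97 (SE 0.42, edgeR adjusted p = 0.182). The lowest was that of miR-6842-5p, with 3, 9 and 10 against 5, 4 and 5, at -0.86 (SE 0.53, edgeR adjusted p = 0.394). miR-6720-3p, counted in Molm-14 alone, had 77, 62 and 56 counts in EV and 63, 97 and 61 in MPC1 KO cells (-0.03, SE 0.23).

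Other miRNAs made without a step of the canonical pathway were listed for comparison. miR-320a and miR-484, cut from capped transcripts without DROSHA, were at 4030 to 5790 CPM as group means, far above any member. miR-451a, made without DICER1, was at 2.95 to 4.71 CPM. Together with 5 miRNAs from snoRNAs these made 8 tested miRNAs. With MPC1 deleted 0 of them passed in either line, where 3.03% of all tested miRNAs passed in MV4-11 and 6.83% in Molm-14. Between the EV lines 2 of the 8, both from snoRNAs, differed, where 61.9% of all tested miRNAs did. miR-664a-3p was higher in Molm-14, at 0.72 (SE 0.17), and miR-664b-5p, with 4 to 18 counts in MV4-11 EV and 0 to 3 in Molm-14 EV, was lower.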

How the data were processed

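Small RNA was sequenced by the authors from 4 groups of 3 libraries. The authors deposited raw counts of reads per mature miRNA without normalization. The submitters' processing notes name STAR 2.5.2, featureCounts 1.5.1 and GRCh38, and the handling of multiply matching reads is not given in the sources used here. Members, lists and tests were chosen with earlier results of these data known.

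All 1204 miRNAs were fitted with edgeR 4.0.16 in R 4.3.3 (filterByExpr, minimum count 10, TMM, robust quasi-likelihood test, 4 group means over 12 libraries), and the Benjamini-Hochberg adjustment ran over the 659 miRNAs kept, with a threshold of 0.05. The standard error is the log2 fold change divided by the square root of F. Groups with at most 3 counts in every library were given as bounds. The fit was also run on simulated counts with known changes, and the outcome of that run is not reported here. Shares were compared by exact permutation tests (SciPy 1.17.1) for the 6 hairpins with 20 counts in every library. Hairpins were placed on GENCODE introns of any transcript, with a tolerance of 3 bases, and called exonic only where no intron fitted. Totals of 3870104 to 8683456 counts leave wide counting error for members with a few counts, and intervals cover counting error only.

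Named members were those past the threshold in any comparison, the 10 of highest mean CPM, the largest rise and fall with MPC1 deleted, and the other arms of these. miR-6812-3p, miR-6866-5p and miR-6838-5p were named in addition, after their values were seen. Alternatives were other scalings, filters and thresholds, DESeq2 1.42.0, limma-voom (limma 3.58.1), 2 groups alone, a replicate block and leaving out each library.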

Additional observations from a re-analysis of the deposited data

Results flagged for a closer look

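The effect of MPC1 deletion on miR-877-3p differed between the lines, by 0.84 on the log2 scale (edgeR's quasi-likelihood test on the difference, adjusted p = 0.0302), and the MPC1 KO libraries lay below all EV libraries in MV4-11 and above them in Molm-14. The call was lost with total counts (edgeR adjusted p = 0.0572) and in 9 of the 12 fits that left out a library (adjusted p up to 0.128).

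The 3p share of miR-877 moved the same way, by -4.84 percentage points in MV4-11 and 3.82 in Molm-14. It is computed from the same miR-877-3p counts, so it is not separate support for the difference. The difference between these 2 changes in share was not tested.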

How the results depend on the processing

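The 0 calls in MV4-11 held under every alternative. In Molm-14 the 1 call became 2 with upper-quartile factors, with total counts and at a threshold of 0.1, and 3 (2 higher, 1 lower) without a filter. Over all miRNAs the calls in these fits were 53, 50, 77 and 57, against 45 in the main fit. Leaving out single libraries gave 1 to 2, with 2 without Molm-14 EV replicate 2 or 3, where 54 and 44 of all miRNAs were called. Calls on the difference between the lines became 2 with upper-quartile factors and 0 with total counts, and 0 to 1 with a library left out. Over all miRNAs they were 44 with upper-quartile factors and 39 with total counts, against 44 in the main fit. Between the EV lines there were 38 calls of 212 members without a filter and 3 of the 5 members with a mean of at least 100 counts, as more or fewer were tested. Calls over all miRNAs were 481 without a filter and 212 with that mean, against 408 in the main fit. Upper-quartile factors moved the median of all miRNAs by -0.11 in MV4-11, by 0.18 in the difference between the lines and by -0.18 between the EV lines. With at least 10 counts in a library 92 members were detected. The summed level in MV4-11 MPC1 KO was 876 CPM with TMM-scaled totals. Without the 10 most abundant miRNAs in the total, the levels were 2660 and 2650 in MV4-11 EV and MPC1 KO and 1460 and 1520 in Molm-14, and without miR-6842-3p they were 528, 567, 412 and 429.

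Values that changed sign were small and passed in no such fit. With MPC1 deleted in MV4-11, miR-6842-3p was at 0.03 and miR-1226-3p at 0.04 with total counts, and miR-877-5p at -0.04 with upper-quartile factors. In Molm-14, upper-quartile factors gave 0.03 for miR-877-5p and 0.04 for miR-6720-3p, and between the EV lines -0.09 for miR-6747-3p. With libraries left out in turn the ranges in MV4-11 were -0.13 to 0.06 for miR-6842-3p, -0.04 to 0.20 for miR-877-5p and -0.10 to 0.03 for miR-1226-3p. In Molm-14 they were -0.11 to 0.03 for miR-877-5p, -0.04 to 0.21 for miR-1226-3p, -0.18 to 0.25 for miR-1237-3p and -0.20 to 0.14 for miR-6720-3p. Between the EV lines they were -0.18 to 0.03 for miR-1226-3p and -0.22 to 0.24 for miR-6747-3p. The cause was not tested.

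Replicate numbers did not pair the libraries. For each library, the deviation of each tested miRNA's log CPM from its group mean was taken. Between same-numbered EV and MPC1 KO libraries these deviations correlated at 0.0948, -0.0789 and -0.127 in MV4-11 and -0.0255, 0.116 and 0.0325 in Molm-14. With the replicate number as a block, the calls numbered 0, 1, 1 and 24 as without it, and among named members miR-6769b-3p (adjusted p = 0.0579 from edgeR) lost its call between the EV lines.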
